A study of Homo sapiens with 12 samples.

Results

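Glycolysis and hypoxia response genes were followed through the differentiation of SH-SY5Y cells exposed to hydrogen peroxide (H2O2). SH-SY5Y is an established human neuroblastoma line that becomes neuron-like with all-trans retinoic acid (ATRA). The set holds 42 genes of the 55765 symbols counted and was chosen by name: 4 transporters of glucose or lactate, 9 genes of upper glycolysis, 2 genes of the PFKFB family, 8 genes of lower glycolysis and lactate formation, 2 pyruvate dehydrogenase kinases, 6 subunits or regulators of hypoxia-inducible factor (HIF) and 11 other genes known to respond to low oxygen. Each had 1 position in the annotation of the genome build hg19. Of these, 41 had enough reads to be tested in every comparison.

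The 12 libraries came from 2 experiments with 3 control and 3 treated cultures each. All cultures received ATRA for 7 days. In the co-treatment experiment, treated cells received H2O2 together with ATRA during all 7 days. In the pre-treatment experiment, they received it for the 72 h before ATRA. Controls received ATRA without H2O2. The series text gives the dose as 10 mM, whereas the methods of the study give the same number in μM. All libraries are of the same cell line and nothing names separate passages or days, so p-values measure the spread between these cultures.

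Glycolysis splits glucose into pyruvate. The upper steps invest ATP, and the lower steps return ATP and NADH. Lactate dehydrogenase turns pyruvate into lactate, and pyruvate dehydrogenase kinases hold pyruvate back from oxidation by switching off pyruvate dehydrogenase. HIF is a transcription factor made of an oxygen-sensitive alpha subunit (HIF1A or EPAS1) and the stable partner ARNT. In the presence of oxygen, the prolyl hydroxylases EGLN1 and EGLN3 mark the alpha subunit, and VHL directs it to degradation. When oxygen is low, HIF switches on many glycolytic genes and targets such as NDRG1, ADM and PDK1. In neuroblastoma, EPAS1 is also known as a gene of the sympathetic lineage.

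Between 27576276 and 98287391 reads were counted on genes per library, and the set took 0.580% to 0.861% of them. Levels are given as CPM, the count of a gene scaled to the size of its library, with TMM factors set within each experiment. The pre-treatment controls stood apart from each other: a chi-square between replicates per degree of freedom was 40.1 for control replicates 1 and 2 but 545 and 499 for each of them against replicate 3, where counting error alone gives about 1. In co-treatment, it was 84.4 and 147 for control replicate 1 against replicates 2 and 3, and 32.9 between replicates 2 and 3. Between co-treated replicates it was 36.9 to 87.5. Reads that the counting assigned to no gene, per read on a gene, were 0.7997 and 0.830 in pre-treatment control replicates 1 and 2. They were 0.200 in pre-treatment control replicate 3 and 0.343 to 0.462 in pre-treated cells. Where in the genome these reads lay was not examined. In co-treatment, small structured RNAs took 5.34%, 9.90% and 12.9% of the reads in control replicates 1 to 3 and 5.07% to 13.1% in treated cells. In pre-treatment, they took 1.63% and 2.95% of the reads in control replicates 1 and 2, 17.6% in replicate 3 and 13.3% to 15.1% in treated cells. Pre-treatment results are therefore given both with control replicates 1 and 2 (5 libraries, those in the study's clustering) and with all 6. Neuronal markers fixed for the check were at 1 CPM or more in every library (9 of 9), as were 11 of 12 noradrenergic markers, with TH under 1 CPM throughout.

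The set was well expressed. In every library, 35 of the 42 genes had 10 CPM or more and 5 others had at least 1 CPM. GAPDH, the dehydrogenase that opens the energy-yielding steps, had 635 to 1583 CPM. CA9, the carbonic anhydrase often used as a hypoxia marker, stayed under 1 CPM, with 11 to 45 reads per library. The glucose transporter SLC2A3 had 0 to 7 reads per library and was not tested. In libraries with 0 reads, the count allows at most 0.0394 to 0.109 CPM.

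After co-treatment, NDRG1 was the member that passed the test, and it was lower in treated cells. No member was higher. Across all 22089 genes tested, 0.598% were called, 0.335% higher and 0.263% lower, and the same 0.598% also passed the study's absolute log2FC of 0.6. The log2FC was negative for 31 of the 41 members and positive for 10, with a median of -0.19, beside a median of 0.00 over all genes. The unadjusted p was under 0.05 for 11 of the 41 members, beside 1801 of all 22089 genes. Treated and control libraries did not overlap for 13 members, 12 with treated cells below and 1 (EGLN3) above, which is 31.7% of the set beside 13.9% of all genes tested.

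**Figure D1:**
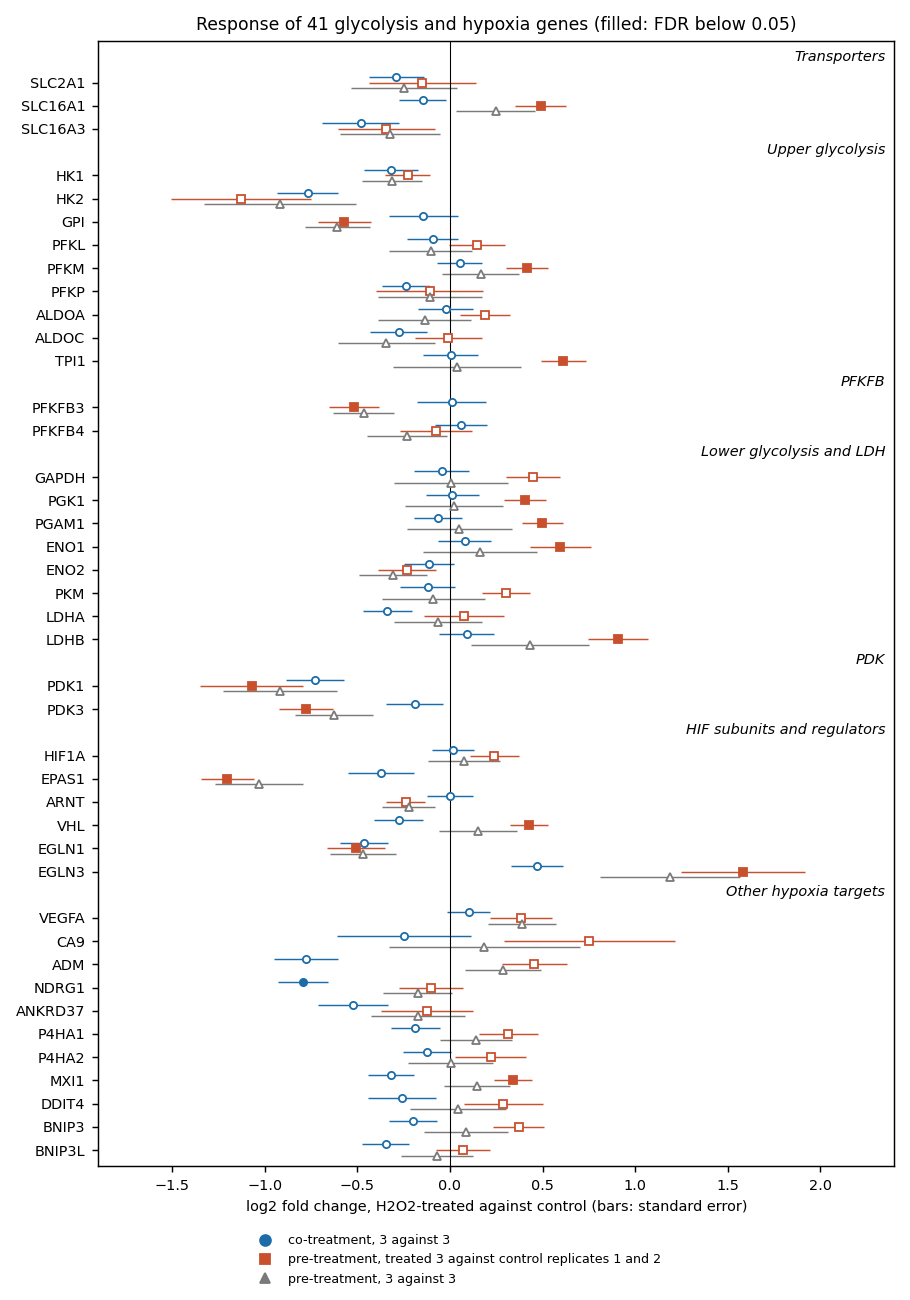
Log2 fold change of treated against control cells (x axis) for the 41 tested genes, grouped by role, with bars for the standard error. Blue circles show co-treatment, orange squares pre-treatment with control replicates 1 and 2, and grey triangles pre-treatment with all 3 controls. Filled symbols passed an FDR below 0.05: 1 gene in co-treatment, 16 in pre-treatment with 5 libraries and 0 with 6.

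NDRG1, a stress-response gene that HIF induces, had 47.6, 52.2 and 54.4 CPM in control replicates 1 to 3 and 33.7, 25.3 and 30.2 CPM in treated replicates 1 to 3. All treated libraries lay below all controls. The log2FC was -0.79 (standard error 0.14, adjusted p = 0.0229 in edgeR's quasi-likelihood test with Benjamini-Hochberg adjustment). The call did not hold without control replicate 2 or 3 or treated replicate 2 or 3 (log2FC -0.79, -0.75, -0.69 and -0.80, adjusted p = 0.116, 0.0565, 0.0911 and 0.193). Over all the alternatives run, the adjusted p of NDRG1 ranged from 2.27e-05 to 0.193 and its log2FC stayed negative.

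A group of 3 further hypoxia-responsive genes had log2FC values of similar size but missed the threshold. ADM, which encodes the vasodilator peptide adrenomedullin, had 27.3, 35 and 42.7 CPM in controls and 23.8, 19.3 and 18.2 CPM in treated cells. HK2, the inducible hexokinase that traps glucose in the cell, had 37.8, 27.8 and 40.6 CPM in controls and 23.8, 18.2 and 20.4 CPM in treated cells. PDK1, the hypoxia-induced pyruvate dehydrogenase kinase, had 19.7, 18.6 and 15.9 CPM in controls and 11.1, 12.1 and 9.48 CPM in treated cells. These genes lie on hg19 at chr11:10326620-10328944 (ADM), chr2:75061254-75120486 (HK2) and chr2:173420101-173473397 (PDK1). For each of the 3, every treated library was below every control. The log2FC was -0.78 for ADM (standard error 0.17, adjusted p = 0.0829), -0.77 for HK2 (0.16, adjusted p = 0.0693) and -0.73 for PDK1 (0.16, adjusted p = 0.0676) in edgeR's quasi-likelihood test. All 3 passed with edgeR's exact test, with DESeq2 and without a filter on low counts. Over all alternatives, the adjusted p ranged from 9.34e-05 to 0.523 for ADM, from 0.000135 to 0.911 for HK2 and from 0.00269 to 0.731 for PDK1, and every log2FC was negative. The gene PDPK1, whose protein shares the name PDK1, had a log2FC of -0.06.

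**Figure D2:**
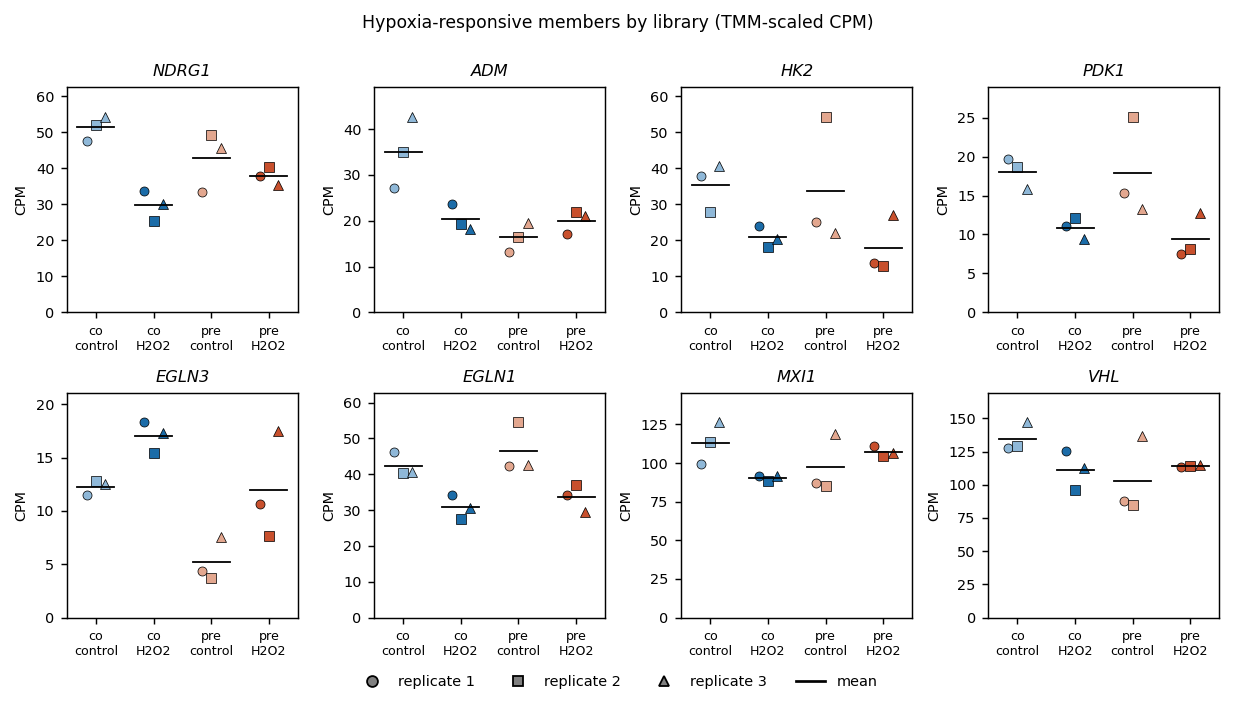
TMM-scaled CPM (y axis, from 0) of 8 genes that respond to low oxygen or regulate HIF, in the 12 libraries, by experiment and treatment on the x axis. Symbols mark replicates 1 to 3 and lines the group means. In co-treatment, NDRG1, ADM, HK2, PDK1, EGLN1, MXI1 and VHL lie lower in all treated libraries than in any control, and EGLN3 lies higher.

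The oxygen sensors EGLN3 and EGLN1 had log2FC values of opposite sign. EGLN3 had 11.5, 12.8 and 12.6 CPM in controls and 18.4, 15.5 and 17.3 CPM in treated cells, and every treated library was above every control (log2FC 0.47, standard error 0.14). EGLN1, the main oxygen sensor of most cells, had 46.2, 40.4 and 40.6 CPM in controls and 34.2, 27.5 and 30.6 CPM in treated cells, with every treated library below (log2FC -0.47, standard error 0.13). Neither passed adjustment in edgeR's quasi-likelihood test (adjusted p = 0.27 and 0.21). VHL had a log2FC of -0.28. The alpha subunits had log2FC values of 0.02 (HIF1A) and -0.37 (EPAS1), and ARNT of 0.00.

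Among the 11 other hypoxia targets, 10 had a negative log2FC and 1 passed the test. Besides NDRG1 and ADM, the values were -0.52 for ANKRD37, -0.35 for the mitophagy receptor BNIP3L, -0.32 for the MYC antagonist MXI1, -0.26 for the mTOR inhibitor DDIT4, -0.25 for CA9, -0.20 for BNIP3, -0.19 and -0.12 for the collagen hydroxylases P4HA1 and P4HA2, and 0.10 for the angiogenic factor VEGFA. The 8 genes of lower glycolysis and lactate formation lay between -0.34 (LDHA) and 0.09 (LDHB), and apart from HK2 the 9 upper genes lay between -0.32 (HK1) and 0.05 (PFKM). The PFKFB genes, which set the level of the activator of phosphofructokinase, had 0.01 (PFKFB3) and 0.06 (PFKFB4). The lactate exporter SLC16A3 had a log2FC of -0.48, the glucose transporter SLC2A1 of -0.29 and SLC16A1 of -0.15. None of these passed adjustment. PDK3 had 15.5, 14.9 and 11.8 CPM in controls and 12.7, 12.5 and 11.8 CPM in treated cells, with overlapping groups and a log2FC of -0.19.

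The summed levels of markers of the noradrenergic and mesenchymal states of neuroblastoma differed between the same libraries. The summed level of 12 noradrenergic markers was 3183 to 4059 CPM in co-treatment controls and 2311 to 3006 CPM in treated cells, without overlap. Of 11 tested, 9 had a negative and 2 a positive log2FC. The summed level of 12 mesenchymal markers was 381 to 430 CPM in controls and 438 to 468 CPM in treated cells. Most of this sum came from LGALS1 (183, 230 and 263 CPM in controls, 225, 206 and 222 in treated cells) and FN1 (165, 94.4 and 66.1, then 147, 157 and 158). The groups overlapped for both. Of 10 tested, 7 had a positive and 3 a negative log2FC, from -1.65 to 1.16. The marker called higher was VIM (log2FC 1.16, adjusted p = 0.0272 in edgeR's quasi-likelihood test). PRRX1, YAP1 and ANXA1 of that list were under 1 CPM in every library. The part of these markers in the values above was not tested.

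HIF binds DNA at a short core with the letters ACGTG or GCGTG. Promoter windows (250 bases before to 50 after the start; RefSeq, GRCh38.p14) were found for 36 of the 42 genes, and 32 of the 36 held either core on at least 1 strand in at least 1 window. The matching share per gene over all genes was not computed, and genes with more windows have more chances of a match. Over single windows, 43 of 65 from the set (66.2%) held a core, beside 48.4% of all 35116 promoters and 54.7% of the 22198 protein-coding ones. Overlapping matches were counted separately. The windows of PDK1, HK2 and ADM are shown because these genes had the largest negative values in co-treatment besides NDRG1, and that of EGLN3 because it had the opposite sign. PDK1 and HK2 have 2 windows each, and the one with more cores is shown. Capitals mark the cores, read on either strand. There are 2 in the PDK1 window (chr2:172555840-172556139, plus strand), 6 in the HK2 window (chr2:74834920-74835219, plus strand), 1 in the ADM window (chr11:10304823-10305122, plus strand) and 0 in the EGLN3 window (chr14:33951025-33951324, minus strand). The other PDK1 window (chr2:172555123-172555422) holds 0 and the other HK2 window (chr2:74833877-74834176) 3.
PDK1: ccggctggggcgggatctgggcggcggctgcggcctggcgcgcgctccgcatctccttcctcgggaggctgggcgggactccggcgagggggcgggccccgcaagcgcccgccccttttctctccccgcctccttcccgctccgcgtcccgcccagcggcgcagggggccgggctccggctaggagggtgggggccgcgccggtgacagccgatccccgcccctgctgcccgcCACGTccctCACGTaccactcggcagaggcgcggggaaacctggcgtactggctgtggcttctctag
HK2: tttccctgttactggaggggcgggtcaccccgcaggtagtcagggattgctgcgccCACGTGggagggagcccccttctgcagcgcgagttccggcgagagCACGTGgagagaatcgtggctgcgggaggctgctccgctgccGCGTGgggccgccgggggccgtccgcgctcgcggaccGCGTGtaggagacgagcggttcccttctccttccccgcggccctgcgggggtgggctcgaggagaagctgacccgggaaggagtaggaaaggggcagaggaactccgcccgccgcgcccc
ADM: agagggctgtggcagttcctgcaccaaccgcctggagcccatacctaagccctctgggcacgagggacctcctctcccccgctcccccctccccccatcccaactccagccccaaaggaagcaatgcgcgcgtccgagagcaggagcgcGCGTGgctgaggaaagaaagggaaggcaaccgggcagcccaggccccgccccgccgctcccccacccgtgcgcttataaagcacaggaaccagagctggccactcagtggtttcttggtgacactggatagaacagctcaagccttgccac
EGLN3: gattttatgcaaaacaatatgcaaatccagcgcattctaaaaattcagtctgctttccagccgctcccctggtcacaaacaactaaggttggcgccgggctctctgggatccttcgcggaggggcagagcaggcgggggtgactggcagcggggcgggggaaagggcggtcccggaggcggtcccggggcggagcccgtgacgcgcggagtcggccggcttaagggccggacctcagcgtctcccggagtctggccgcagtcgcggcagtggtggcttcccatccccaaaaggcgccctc
A match shows only that the letters are present, and binding was not measured. Core counts were not compared with log2FC values, and DNA outside the windows was not searched.

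**Figure D3:**
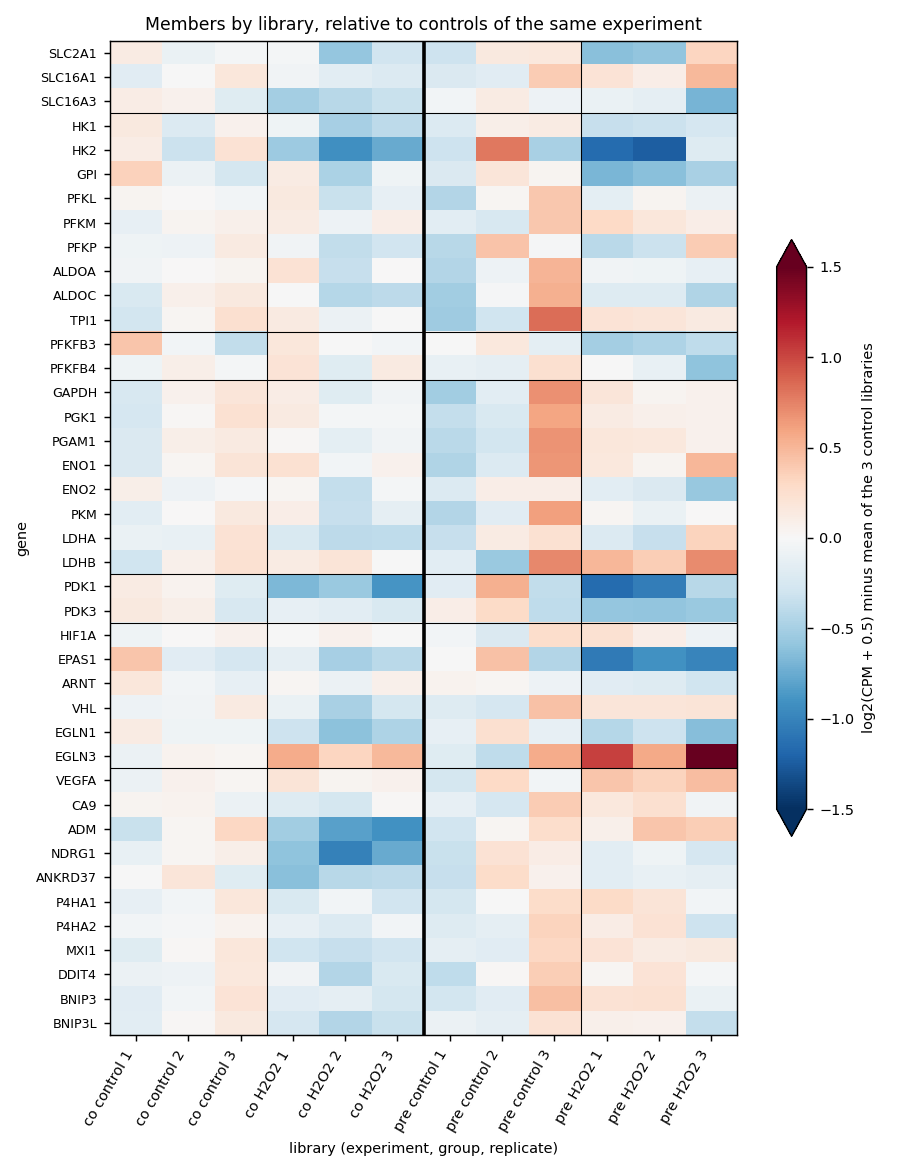
Each row is a gene and each column a library. Colour gives log2(CPM + 0.5) minus the mean of the 3 controls of the same experiment, from blue (lower) to red (higher). In the pre-treatment experiment, control replicate 3 is red for most genes of lower glycolysis, whereas control replicates 1 and 2 are mostly pale or blue there.

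After pre-treatment, with control replicates 1 and 2, 16 members passed the test, 10 higher and 6 lower in treated cells. In this comparison, 26.1% of all 26350 genes tested were called, 13.2% higher and 12.8% lower. The higher genes included 4 of the 8 in lower glycolysis and lactate formation, and the lower ones both pyruvate dehydrogenase kinases and EPAS1. The split depended on scaling: upper-quartile factors gave 4 higher and 8 lower, and library size alone 3 higher and 9 lower. These scalings moved the median of all genes to -0.10 and -0.21 on the log2 scale, and the log2FC of each of the 16 kept its sign. Single libraries mattered: leaving out control replicate 1 gave 8 calls (2 higher and 6 lower) and control replicate 2 gave 3 (2 and 1), while leaving out treated replicates 1, 2 and 3 in turn gave 5 (3 and 2), 7 (5 and 2) and 19 (11 and 8). EPAS1 was called in each of these 5 fits. With all 6 libraries, no member passed edgeR's quasi-likelihood test, beside 0.0242% of all genes. The unadjusted p was under 0.05 for 7 of the 41 members, beside 2776 of all 24743 genes. Among the other tests with these 6 libraries, edgeR's exact test called 1 member (EPAS1), DESeq2 2 (EPAS1 and GPI) and limma-voom 0.

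The genes of lower glycolysis and lactate formation that rose with 5 libraries were LDHB, the lactate dehydrogenase subunit that favours lactate use (log2FC 0.91, standard error 0.16, adjusted p = 0.0065 in edgeR's quasi-likelihood test), the enolase ENO1 (0.60, adjusted p = 0.0311), the mutase PGAM1 (0.50, adjusted p = 0.0137) and the kinase PGK1 (0.40, adjusted p = 0.0307). The other members of the group had log2FC values of 0.45 (GAPDH), 0.31 (PKM), 0.08 (LDHA) and -0.23 (the neuronal enolase ENO2). LDHB had 278 and 212 CPM in control replicates 1 and 2, 513 in replicate 3 and 442, 404 and 511 in treated cells. Control replicate 3 was thus above every treated library, and with it the log2FC of LDHB was 0.43. It was likewise above all treated libraries for GAPDH, PGK1, PGAM1, ENO1, PKM and TPI1, and with all 6 libraries the log2FC of these 6 genes lay between -0.09 (PKM) and 0.16 (ENO1). LDHB did not pass without control replicate 2 (log2FC 0.73, adjusted p = 0.0557; the highest over all alternatives with 5 libraries). The other 3 calls rested on single libraries more often: of the 5 fits without 1 library, ENO1 passed in 2, PGAM1 in 1 and PGK1 in 1, with adjusted p up to 0.145, 0.0727 and 0.126. ENO1 and PGK1 did not pass with upper-quartile factors or library size alone, nor PGAM1 with library size alone, nor PGK1 with 1 fit over both experiments (adjusted p = 0.09).

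**Figure D4:**
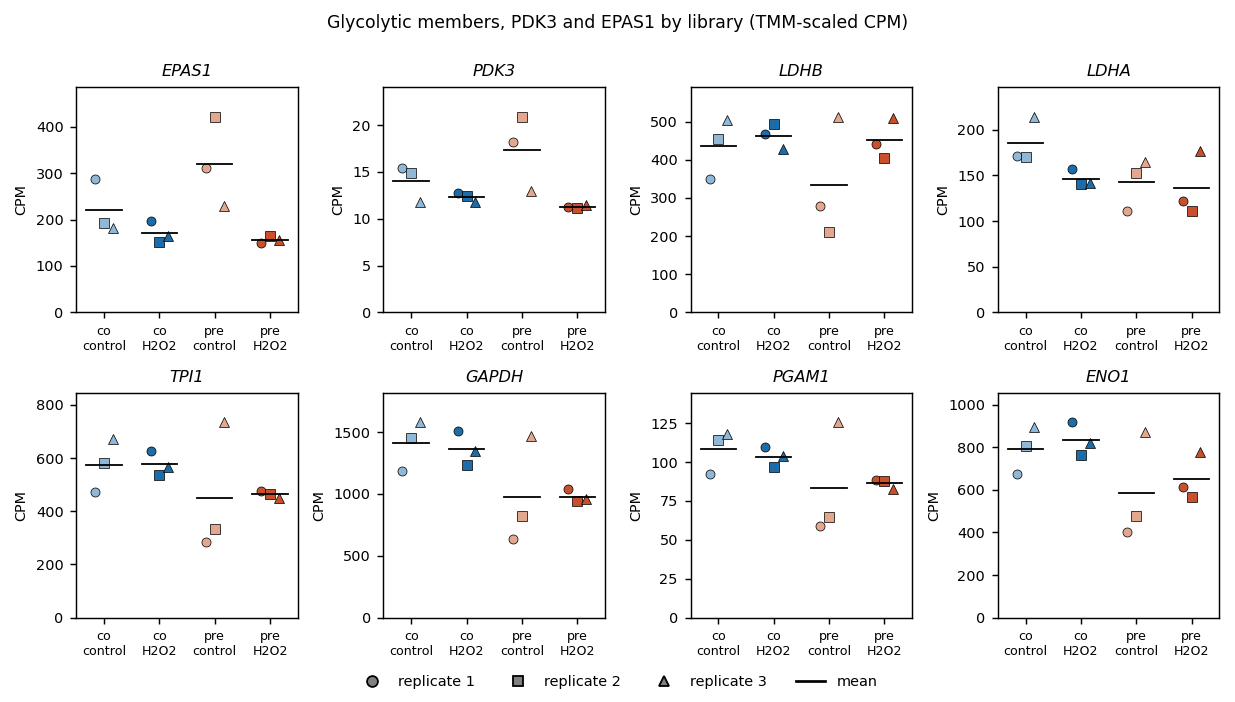
TMM-scaled CPM (y axis, from 0) of 8 genes in the 12 libraries, by experiment and treatment on the x axis, with symbols for replicates and lines for group means. For LDHB, TPI1, GAPDH, PGAM1 and ENO1, pre-treatment control replicate 3 (triangle) lies above the treated libraries, while for EPAS1 and PDK3 all 3 controls lie above them.

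In upper glycolysis, the isomerase TPI1 (0.61, adjusted p = 0.00987 in edgeR's quasi-likelihood test) and the phosphofructokinase PFKM (0.42, adjusted p = 0.0304) rose with 5 libraries. GPI, the isomerase of the second step, fell (-0.57, adjusted p = 0.0211), and with all 6 libraries its log2FC was -0.61. HK2 had 25 and 54.3 CPM in control replicates 1 and 2, 22 in replicate 3 and 13.7, 12.9 and 27 in treated cells. The groups overlapped for HK2, and it did not pass with 5 libraries (log2FC -1.13, standard error 0.38, adjusted p = 0.0578). This depended on the fit: HK2 passed in 6 of 12 other alternatives (adjusted p from 3.22e-10 to 0.156) and in 2 of the 5 fits without 1 library, whereas without control replicate 2 its log2FC was -0.46 (adjusted p = 0.479). HK1, PFKL, PFKP, ALDOA and ALDOC lay between -0.23 and 0.19 and were not called. PFKFB3, the isoform of that family expressed in most tissues, fell (-0.52, adjusted p = 0.0246), whereas PFKFB4 had -0.08. Among transporters, the lactate carrier SLC16A1 rose (0.49, adjusted p = 0.0325), and SLC2A1 (-0.15) and SLC16A3 (-0.34) were not called. Of the 5 fits without 1 library, TPI1 passed in 4, GPI and SLC16A1 in 2 each, and PFKM and PFKFB3 in 1 each, with adjusted p up to 0.0529, 0.174, 0.133, 0.161 and 0.171. PFKM and SLC16A1 did not pass with upper-quartile factors or library size alone either.

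EPAS1, PDK1 and EGLN3 also passed the study's absolute log2FC of 1, which 11.2% of all genes tested did. EPAS1, on hg19 at chr2:46520806-46613836, had 310.4, 422 and 229 CPM in control replicates 1 to 3 and 149, 165 and 156 CPM in treated cells. All controls were above all treated libraries, replicate 3 included. The log2FC was -1.20 with 5 libraries (standard error 0.14, adjusted p = 0.00163 in edgeR's quasi-likelihood test) and -1.03 with 6 (standard error 0.24, adjusted p = 0.32). The other alpha subunit, HIF1A, had 322, 286 and 399 CPM in controls and 390.0, 357 and 315 CPM in treated cells, with overlapping groups and a log2FC of 0.24 with 5 libraries. Noradrenergic markers also differed between these libraries. Their summed level was 2662 to 4143 CPM in the 3 controls and 1880 to 2635 CPM in treated cells, without overlap but by a small margin. Much of this sum came from GATA2 (802, 1014 and 739 CPM in controls, 432, 502 and 485 in treated cells) and DBH (371, 1081 and 364, then 127, 201 and 321). HAND2 had 331, 367 and 450, then 352, 386 and 465. With 5 libraries, 5 of the 11 tested had a positive and 6 a negative log2FC, with a median of -0.06. In edgeR's quasi-likelihood test with 5 libraries, 2 of 11 tested were called higher and 4 lower, beside 13.2% and 12.8% of all genes. With 6 libraries none were called, and 4 had an unadjusted p under 0.05, beside 2776 of all 24743 genes. The part of these markers in the values of EPAS1 and the other members was not tested.

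PDK1 had 15.3, 25.1 and 13.3 CPM in the pre-treatment controls and 7.49, 8.14 and 12.7 CPM in treated cells. The lowest control was replicate 3, still above the highest treated library. The log2FC of PDK1 was -1.07 with 5 libraries (adjusted p = 0.0251 in edgeR's quasi-likelihood test) and -0.92 with 6 (adjusted p = 0.338). The call with 5 libraries did not hold without control replicate 2 or treated replicate 1 or 2 (log2FC -0.67, -0.93 and -0.98, adjusted p = 0.219, 0.0782 and 0.0768), and over all alternatives the adjusted p of PDK1 ranged from 5.1e-07 to 0.219. PDK3, the X-linked kinase of the same family, had 18.2, 20.9 and 12.9 CPM in controls and 11.2, 11.1 and 11.4 CPM in treated cells. Its groups did not overlap either (log2FC -0.78 with 5 libraries, adjusted p = 0.00789 in edgeR's quasi-likelihood test, and -0.63 with 6). Without control replicate 2, PDK3 did not pass (log2FC -0.67, adjusted p = 0.0766).

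EGLN3 had 4.36, 3.73 and 7.61 CPM in controls and 10.7, 7.67 and 17.5 CPM in treated cells. Every treated library was above every control, by a small margin for treated replicate 2 against control replicate 3. The log2FC was 1.58 with 5 libraries (standard error 0.34, adjusted p = 0.0122 in edgeR's quasi-likelihood test) and 1.19 with 6 (adjusted p = 0.324). Without control replicate 2, the fit with the other 4 libraries gave a log2FC of 1.48 (adjusted p = 0.0956). On hg19, the EGLN3 locus overlaps the antisense gene EGLN3-AS1 and, in part of its annotated extent, SPTSSA on the same strand. The strand setting of the counting is not given in the sources used here, so reads of EGLN3-AS1 may be mixed with those of EGLN3. Reads in the stretch shared with SPTSSA cannot be told apart by strand. EGLN1 had 42.4, 54.6 and 42.5 CPM in controls and 34.2, 37.1 and 29.5 CPM in treated cells, without overlap. It fell with 5 libraries (log2FC -0.51, adjusted p = 0.044 in edgeR's quasi-likelihood test, up to 0.31 without control replicate 2) and had a log2FC of -0.47 with 6. VHL rose with 5 libraries (0.43, adjusted p = 0.0185), and ARNT had -0.24. The call of VHL held in 1 of the 5 fits without 1 library (adjusted p up to 0.117) and not with upper-quartile factors, library size alone or 1 fit over both experiments (0.0585, 0.178 and 0.0518). With all 6 libraries, VHL had a log2FC of 0.15 (adjusted p = 0.803).

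Of the 11 other hypoxia targets, MXI1 passed with 5 libraries (log2FC 0.34, adjusted p = 0.0434 in edgeR's quasi-likelihood test). The call held in 1 of the 5 fits without 1 library and in 5 of 12 other alternatives, with adjusted p up to 0.429, and with all 6 libraries the log2FC of MXI1 was 0.14. The remaining 10 lay between -0.12 (ANKRD37) and 0.75 (CA9). VEGFA was above every control in all treated libraries, with control replicate 3 included (log2FC 0.39 with 6 libraries, adjusted p = 0.474). Groups did not overlap for 25 members with 5 libraries (61.0% beside 57.8% of all genes) and for 11 with 6 libraries (26.8% beside 16.3%), of which 2 were above (EGLN3 and VEGFA) and 9 below. Control replicate 3 was nearer to the treated mean than to the mean of the other controls for 27 of the 41 members (65.9%), beside 72.7% of all genes. The part of the shares of small RNA and of reads assigned to no gene, given above, in these results was not tested. Without the small RNA loci, 15 members passed with 5 libraries, 9 higher and 6 lower.

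The responses of the 2 experiments were compared by an interaction term. With the 11 libraries, 3 members differed, all with a positive difference, beside 8.02% of all genes. They were ADM (difference of log2FC, pre-treatment minus co-treatment, 1.18, standard error 0.27, adjusted p = 0.0203 in edgeR's quasi-likelihood test), VHL (0.65, adjusted p = 0.0381) and MXI1 (0.61, adjusted p = 0.038). ADM had 13.2, 16.5 and 19.6 CPM in pre-treatment controls and 17.2, 21.9 and 21.1 CPM in treated cells. VHL had 128, 129 and 147 CPM in co-treatment controls, 125, 95.9 and 112 in co-treated cells, 88, 84.5 and 137 in pre-treatment controls and 114, 114 and 115 in pre-treated cells. MXI1 had 99.1, 113 and 127 CPM in co-treatment controls and 91.4, 88.3 and 91.8 in co-treated cells. In the pre-treatment experiment, MXI1 had 87.3, 85 and 119 CPM in controls and 111, 105 and 106 in treated cells. In co-treatment, the treated libraries of all 3 genes lay below the controls, and in pre-treatment they lay above control replicates 1 and 2 but not above replicate 3 for VHL and MXI1, and overlapped it for ADM. ADM did not pass without co-treated replicate 3 or pre-treatment control replicate 1 (differences of 1.10 and 1.10, adjusted p = 0.0585 and 0.06). VHL and MXI1 passed in 3 of the 11 fits that left out 1 library each, and with neither upper-quartile factors (adjusted p = 0.0518 and 0.0602) nor library size alone (0.14 and 0.127). The signs depended on scaling: upper-quartile factors and library size alone each gave 1 positive call (ADM) and 2 negative ones (PDK3 and EPAS1). EPAS1 lay at the threshold, with a difference of -0.89 (adjusted p = 0.0502 in edgeR's quasi-likelihood test). It passed in 9 of 10 other alternatives and in 1 of the 11 fits without 1 library. With all 12 libraries, no member passed this test, beside 0.0287% of all genes. The unadjusted p was under 0.05 for 3 of the 41 members, beside 2183 of all 24407 genes. DESeq2 and limma-voom called 0 members with these 12 libraries. The largest difference was then that of ADM (1.04, adjusted p = 0.398). NDRG1, the gene called in co-treatment, had 33.4, 49.2 and 45.7 CPM in pre-treatment controls and 37.9, 40.5 and 35.4 CPM in treated cells, and its difference with 11 libraries was 0.64 (adjusted p = 0.0894).

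A set of 4 genes had non-overlapping groups in the same direction in both experiments with all 12 libraries: SLC16A3, PDK1 and EGLN1 below the controls and EGLN3 above. SLC16A3 had 4.67, 4.51 and 3.7 CPM in co-treatment controls, 2.84, 3.08 and 3.3 in co-treated cells, 4, 4.55 and 3.91 in pre-treatment controls and 3.84, 3.74 and 2.37 in pre-treated cells. The 4 genes are 9.76% of the 41 members beside 1.90% of the 21930 genes tested in both. Without pre-treatment control replicate 3, the same 4 genes were apart, beside 4.39% of all 22021 genes tested in both. The 2 experiments have separate controls. With all 12 libraries, no member was apart in opposite directions, beside 0.894% of all genes. Without pre-treatment control replicate 3, 3 members were (ADM, MXI1 and VHL), which is 7.32% beside 3.03% of all genes.

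Ratios between related genes within a library do not depend on scaling. The ratio of EGLN1 to EGLN3, per kilobase of exon, was 4.32 to 5.49 in co-treatment controls, 2.41 to 2.55 in co-treated cells, 7.64 to 20.0 in pre-treatment controls and 2.31 to 6.62 in pre-treated cells. In both experiments, every treated library had a lower ratio than any control. This order follows from the levels of EGLN1 and EGLN3 given above and is not a separate result. The ratio of HIF1A to EPAS1 was 0.96 to 2.47 in pre-treatment controls and 2.85 to 3.71 in treated cells, without overlap, and overlapped in co-treatment. The ratio of HK1 to HK2 was 3.9 to 4.72 in co-treatment controls and 5.64 to 6.07 in treated cells, that of LDHB to LDHA 4.15 to 5.4 and 6.02 to 7.12, and that of PDK3 to PDK1 0.632 to 0.681 and 0.876 to 1.06. Each was higher in all treated libraries of co-treatment and overlapped in pre-treatment. Further ratios were computed, and some of these were also apart in 1 experiment. That of PFKM to PFKP, for example, was 2.57 to 2.89 in co-treatment controls and 3.04 to 3.5 in co-treated cells. The ratios were not tested.

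**Figure D5:**
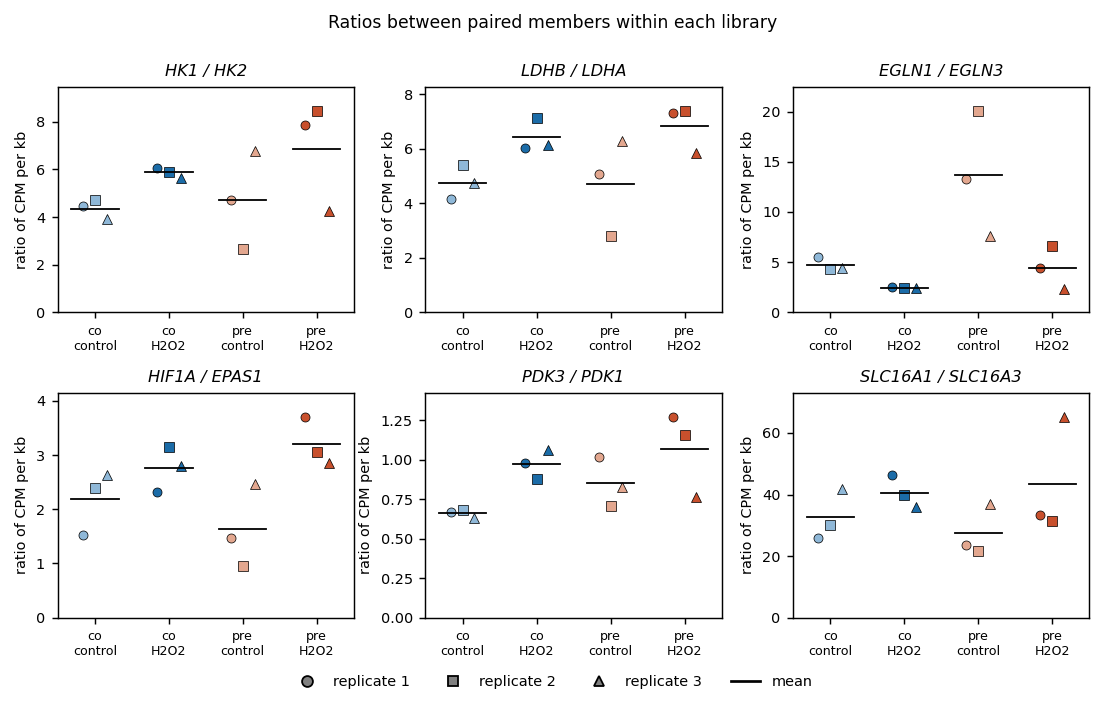
Ratio of CPM per kilobase of exon between 2 related genes (y axis, from 0) in each of the 12 libraries, by experiment and treatment on the x axis, with symbols for replicates and lines for group means. The ratio of EGLN1 to EGLN3 lies lower in all treated libraries of both experiments, which follows from the separate levels of the 2 genes.

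Other genes of these pathways were counted from wider lists. After co-treatment, 0 of 42 other glycolysis and pyruvate genes passed edgeR's quasi-likelihood test (4 at an unadjusted p under 0.05), and 0 of 11 pentose phosphate genes did (0). Of all 22089 genes tested, 0.598% passed and 1801 had an unadjusted p under 0.05. Of 52 other hypoxia genes, 19 had a positive and 33 a negative log2FC in co-treatment, with a median of -0.12, and 15 had an unadjusted p under 0.05; calls of this list in co-treatment are not reported here. After pre-treatment with 5 libraries, 13.2% of all genes tested were called higher and 12.8% lower. In that comparison, 12 of 45 other glycolysis genes were higher and 2 lower, 4 and 1 of 12 pentose phosphate genes, and 8 and 12 of 52 hypoxia genes. Those with the smallest adjusted p were BPGM (0.81), GPD1L (0.68) and PDHB (0.77) in the first list, H6PD (-0.80), PGD (0.63) and TKT (0.52) in the second, and the carbonic anhydrase CA12 (2.88), the histone demethylase KDM4B (0.499 times the control level) and WSB1 (0.97) in the third. Mesenchymal markers were higher in 6 of 10 and lower in 0 with 5 libraries. VIM (2.42) and COL3A1 (2.44) also passed edgeR's quasi-likelihood test with 6 (adjusted p = 0.0442 for each), beside 0.0242% of all genes. No gene of the 3 metabolic and hypoxia lists passed it with 6. The unadjusted p was then under 0.05 for 5 of 44 other glycolysis, 1 of 12 pentose phosphate and 11 of 52 other hypoxia genes. The same held for 2776 of all 24743 genes. The summed level of the 12 mesenchymal markers was 346 to 543 CPM in the 3 pre-treatment controls and 343 to 545 CPM in treated cells.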

How the data were processed

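The 12 libraries were made from total RNA after removal of ribosomal RNA. The authors removed poor bases with Cutadapt (2.10), aligned reads to hg19 with HISAT2 (2.1.0) and used htseq-count (0.7.2), and the deposited values are raw counts per gene and library. The kit marks strand, but the strand setting of the counting is not given in the sources used here. The 5 closing entries for uncounted reads were left out. The tables of the authors' own comparisons (log2 fold changes, CPM, p-values) were not used.

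The tests used edgeR 4.0.16 under R 4.3.3 (TMM, quasi-likelihood test, Benjamini-Hochberg adjustment over all genes tested); DESeq2 1.42.0 and limma 3.58.1 (voom) were alternatives. Genes entered when their CPM reached that of 5 counts in the smallest library (0.181 and 0.120 CPM in the 2 experiments), in at least the number of libraries in the smaller group. Genes were called at an FDR below 0.05. The study's methods name edgeR's exact test, which is given as an alternative. The fits were tested on simulated data with 100 genes changed at each size. The changed genes were drawn above a mean level higher than the filter, so recovery at lower levels was not examined. In co-treatment, 87% of 2-fold changes were recovered, and in pre-treatment 64% with 5 libraries and 13% with 6. For the difference between experiments, 19% were recovered with 11 libraries and 8% with 12. Of 4-fold changes, 86% to 100% were recovered. A missing call with 6 or 12 libraries therefore does not show that a gene was unchanged. Promoter letters were searched on both strands.

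The members and lists were chosen with earlier results of these data known. By rule, values per library are given for members called in co-treatment, with all 6 pre-treatment libraries or between experiments, or past an absolute log2FC of 1 with 5 libraries, and for their related partners. HK2, LDHB and the other genes in the plots of CPM, and the ratios described, were chosen after their values were seen. Other lists name called genes and the 3 with the smallest adjusted p; some results of these lists are not reported here. Pseudogenes share sequence with several members, and reads on LDHA pseudogenes came to 4.27% to 10.6% of those on LDHA.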

Additional observations from a re-analysis of the deposited data

Results flagged for a closer look

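In the interaction test with 11 libraries (edgeR's quasi-likelihood test), 3 of the 41 tested members passed, beside 8.02% of all genes tested. The difference of log2FC, pre-treatment minus co-treatment, was 1.18 for ADM, 0.65 for VHL and 0.61 for MXI1. With control replicate 3 added, the differences were 1.04, 0.41 and 0.44, and none passed adjustment (adjusted p = 0.398, 0.614 and 0.557). Over all alternatives with 11 libraries, the adjusted p ranged from 3.53e-05 to 0.06 for ADM, from 0.0177 to 0.14 for VHL and from 0.00656 to 0.127 for MXI1. Groups of 3 libraries were too small for a search for outlying values.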

How the results depend on the processing

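In co-treatment, the 1 call among members became 4 with edgeR's exact test, DESeq2 or no filter, 2 with robust estimation and 0 with library size alone or 1 fit over both experiments, and 0 to 2 when 1 library was left out. In pre-treatment with 5 libraries, the 16 calls became 3 with the study's threshold on the log2FC and 3 to 19 when 1 library was left out (8 and 3 on leaving out control replicate 1 or 2, and 5 and 7 on leaving out treated replicate 1 or 2). With 1 control left, its spread is assumed to be that of the treated libraries. With all 6 libraries, the 0 calls became 1 with the exact test or no filter, 2 with DESeq2 and 0 to 16 when 1 library was left out, 16 without control replicate 3. For the difference between experiments with 11 libraries, the 3 calls became 7 with DESeq2, 5 with limma-voom or robust estimation, 8 without a filter and 0 to 11 when 1 library was left out (11 without co-treatment control replicate 1, 0 without co-treated replicate 3). With 12 libraries, the 0 calls became 1 without a filter and 0 to 3 when 1 library was left out, 3 without pre-treatment control replicate 3. The causes were not tested.

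Libraries with the same replicate number did not deviate together (correlations of 0.0333, -0.0349 and -0.111 in co-treatment and -0.238, 0.049 and -0.27 in pre-treatment), so the numbers are not taken as pairs. A replicate block gave 3 calls in co-treatment, 26 in pre-treatment with 5 libraries, 0 with 6, and 4 and 0 for the difference with 11 and 12 libraries.

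Of 3936 values of single members under the alternatives, 3747 kept their side of the threshold and direction of call, 91 lost a call and 98 gained one. No call changed direction, and 203 values that were called neither in the reported fit nor in the alternative changed sign. With library size alone, the median of all genes went from -0.02 to -0.23 in the difference with 11 libraries and from -0.04 to -0.12 with 12. Depth limited SLC2A3 (0 to 7 reads per library) and CA9 (11 to 45).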
